A study of Mus musculus with 36 samples.

Results

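The colon of mice with a knockout of Il17rc (KO) was compared with that of wild-type mice (WT) at day 7 of an azoxymethane and dextran sulfate sodium protocol. All arrays whose titles carry day 7 were taken, which gave 4 KO-labelled and 4 WT arrays among the 36 of the series. Mice of both genotypes were 6 to 8 weeks old. The full protocol is an injection of azoxymethane, a colon carcinogen, with 3 cycles of dextran sulfate sodium, a sulfated polysaccharide that causes colitis, given at 3% by mouth for 5 days and each time followed by 14 days of plain water. Day 7 is the earliest time sampled after treatment began, and the labels do not say from which step it is counted. The other 28 arrays were of untreated colon (4 KO and 4 WT), day 15 (4 KO and 4 WT) and tumors (6 KO and 6 WT), and they entered the model for its estimate of the spread and for tests of how the genotype difference varied with stage. The labels give no strain, sex or KO allele, and do not say that each array is a separate animal, so p-values measure only the spread between these arrays. Whole colon tissue was minced and homogenized, so a value sums over all cell types of the tissue. Each array gave deposited intensities for 17097 genes, each represented by its brightest probe set over the series.

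IL-17RC pairs with IL-17RA to form a receptor through which IL-17A and IL-17F act. In the gut these cytokines come mainly from T cells and innate lymphocytes and act on epithelial and stromal cells. Known responses are chemokines that attract neutrophils and lymphocytes, antimicrobial proteins, tight-junction upkeep and, in injured epithelium, repair.

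The targeted gene did not match the label on every array. The brighter probe set of Il17rc, on chromosome 6, had intensities of 331, 44, 12 and 10 on KO-labelled replicates 1, 2, 3 and 4, against 340, 515, 373 and 425 on WT replicates 1, 2, 3 and 4. KO-labelled replicate 1 was level with the lowest WT array, replicate 2 lay between the genotypes, and replicates 3 and 4 were as low as the KO arrays of the other stages, which had 7 to 15, where WT arrays of those stages had 76 to 341. Because of replicate 1, the arrays are called KO-labelled throughout. Over the 4 and 4 arrays Il17rc was lower in the KO-labelled group by a log2 difference of -3.41 ± 0.57 (limma standard error, adjusted p = 0.00355), and the exact two-sided permutation test over the 8 arrays gave p = 0.0286, the smallest it can give. Without KO-labelled replicates 1 and 2, which were set aside for their Il17rc level, the difference was -5.13, a larger size that follows from that choice. A second Il17rc probe set was at 7 to 9 on all 8 arrays, near the lowest intensities of the series, and tells nothing of the genotype. The labels do not say which part of the gene was deleted.

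Genes that separated the genotypes at the other stages were read on the same arrays. In the 28 arrays of those stages 10 genes differed between KO and WT in at least 2 of the 3 stages, and 3 of them (Il17rc, Bcat2 and Pop4) in all 3 stages. Bcat2, on chromosome 7, encodes the mitochondrial enzyme that starts the breakdown of branched-chain amino acids, and had intensities of 23, 11, 12 and 12 on KO-labelled arrays, against 30, 52, 30 and 31 on WT arrays. Pop4, a protein subunit of the RNA-processing complexes RNase P and RNase MRP on chromosome 7, had 29, 38, 62 and 69 on KO-labelled arrays, against 30, 24, 22 and 25 on WT arrays. Zfp939, a zinc finger gene on chromosome 7, had 19, 46, 51 and 43 on KO-labelled arrays, against 19, 17, 18 and 22 on WT arrays. KO-labelled replicate 1 sat inside the WT range for Pop4 and Zfp939 and nearer to WT than the other KO-labelled arrays did for Bcat2. By distance to the medians of the other stages it was nearer to WT than to KO in 8 of the 9 genes other than Il17rc, whose level had singled it out, and replicate 2 in 5. For 4 of these genes (Ada, Gzma, Oas3 and Rhbdf1) the arrays of both groups overlapped at day 7, with log2 differences between -0.11 and -0.05, so nearness to either genotype tells little there. Replicates 1 and 2 were both nearer to WT in each of those 4. Bcat2, Cd177, Pop4 and Zfp939 all lie on chromosome 7, so their readings may not be separate from one another.

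The tissue on the arrays also varied within each group. Krt5, a keratin of stratified squamous epithelium that normal colon mucosa lacks, had intensities of 4230, 1006, 19 and 19 on KO-labelled arrays, against 817, 17, 18 and 205 on WT arrays. S100a8, a calcium-binding protein abundant in neutrophils, had 1980, 421, 8 and 7 on KO-labelled arrays, against 220, 14, 13 and 52 on WT arrays. Both genes were high on KO-labelled replicates 1 and 2 and on WT replicates 1 and 4, and low on the other 4 arrays. The 21 squamous markers had a mean log2 intensity between 3.81 and 8.72 on KO-labelled arrays and between 3.86 and 9.12 on WT arrays, and the 15 neutrophil genes between 3.54 and 5.84 and between 3.78 and 4.81. Of other neutrophil genes on KO-labelled arrays, S100a9 spanned 20 to 3279 and Il1b 13 to 128. Cxcr2 spanned only 9 to 27, Csf3r 13 to 26 and Mmp9 8 to 11. How far S100a8 stands for neutrophils on these arrays was not tested. Colonocyte genes were bright on all 8 arrays, with Car1, a carbonic anhydrase of the colon surface, at 5626 to 6615 and Slc26a3, its chloride-bicarbonate exchanger, at 1419 to 2700. Correlations between arrays over all genes on the log2 scale were 0.967 to 0.994 among KO-labelled arrays, 0.969 to 0.989 among WT arrays and 0.965 to 0.988 between the groups.

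**Figure D1:**
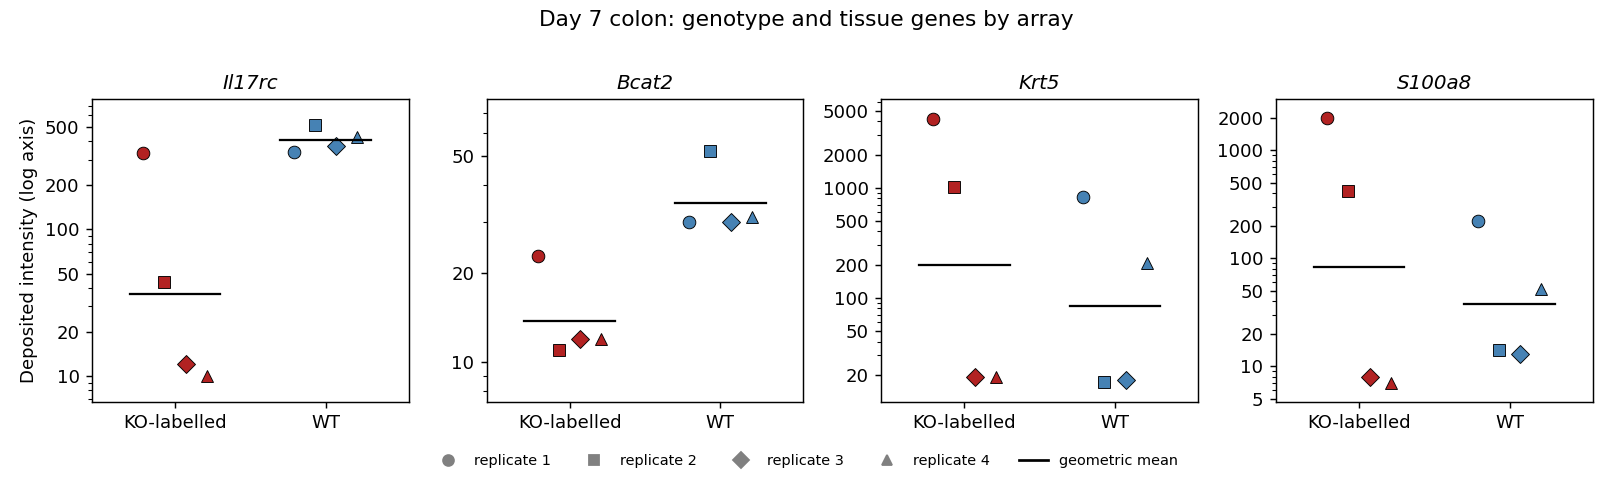
Deposited intensity (log axis) of Il17rc, Bcat2, Krt5 and S100a8 on the 8 day 7 arrays, KO-labelled left and WT right, with replicates 1 to 4 as circle, square, diamond and triangle and the geometric mean as a line. KO-labelled replicate 1 has Il17rc at 331, beside the WT arrays at 340 to 515, and also the highest Krt5 (4230) and S100a8 (1980).

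Of the 17097 genes, 49 differed between KO-labelled and WT colon at an adjusted p below 0.05 by limma, or 0.287% of those tested: 14 were higher in the KO-labelled arrays (0.0819%) and 35 lower (0.205%). The rises included the DNA replication genes Uhrf1, Mcm4, Timeless and Cdt1, and the falls Il17rc, the enzyme gene Ddah1, the immunoglobulin segment Igkj1 and the lectin gene Lgals9. The changes were mostly small, with a median rise of 0.81 and a median fall of -0.78 on the log2 scale, and 12 genes passed 1 log2 unit. All 4 KO-labelled arrays lay above all 4 WT arrays for 11 of the rises, and all below for 28 of the falls. Over all genes 2.99% had every KO-labelled array above every WT array and 2.42% had every one below. At an unadjusted p below 0.05 there were 1010 genes higher (5.91%) and 955 lower (5.59%).

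The count of called genes depended on single arrays. It was 158 without KO-labelled replicate 1 and 528 without WT replicate 1, and 19, 18 and 15 without KO-labelled replicate 2, 3 or 4 and 20, 13 and 20 without WT replicate 2, 3 or 4. Leaving out replicates 1 and 2 of the KO-labelled group gave 73 genes (0.427%), 30 higher and 43 lower, which shared 30 with the 49, and all 49 kept their sign. Leaving out replicate 1 of both genotypes, an alternative added after these values were seen, gave 758 genes (4.43%), 353 higher (2.06%) and 405 lower (2.37%), which held all 49. Leaving out the arrays with Krt5 above 100, here and at the other stages, gave 416 genes (2.43%), which shared 43 with the 49. With the spread taken from the 8 day 7 arrays alone, limma called 0 genes, while 2127 had an unadjusted p below 0.05. Of the 49 genes 10 passed in each of the 8 fits that left out a single day 7 array: Il17rc, Bcat2, Cdt1, Sertad4, Commd6, Fbxw2, Med27, Cwc15, Arf1 and Lce1h.

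**Figure D2:**
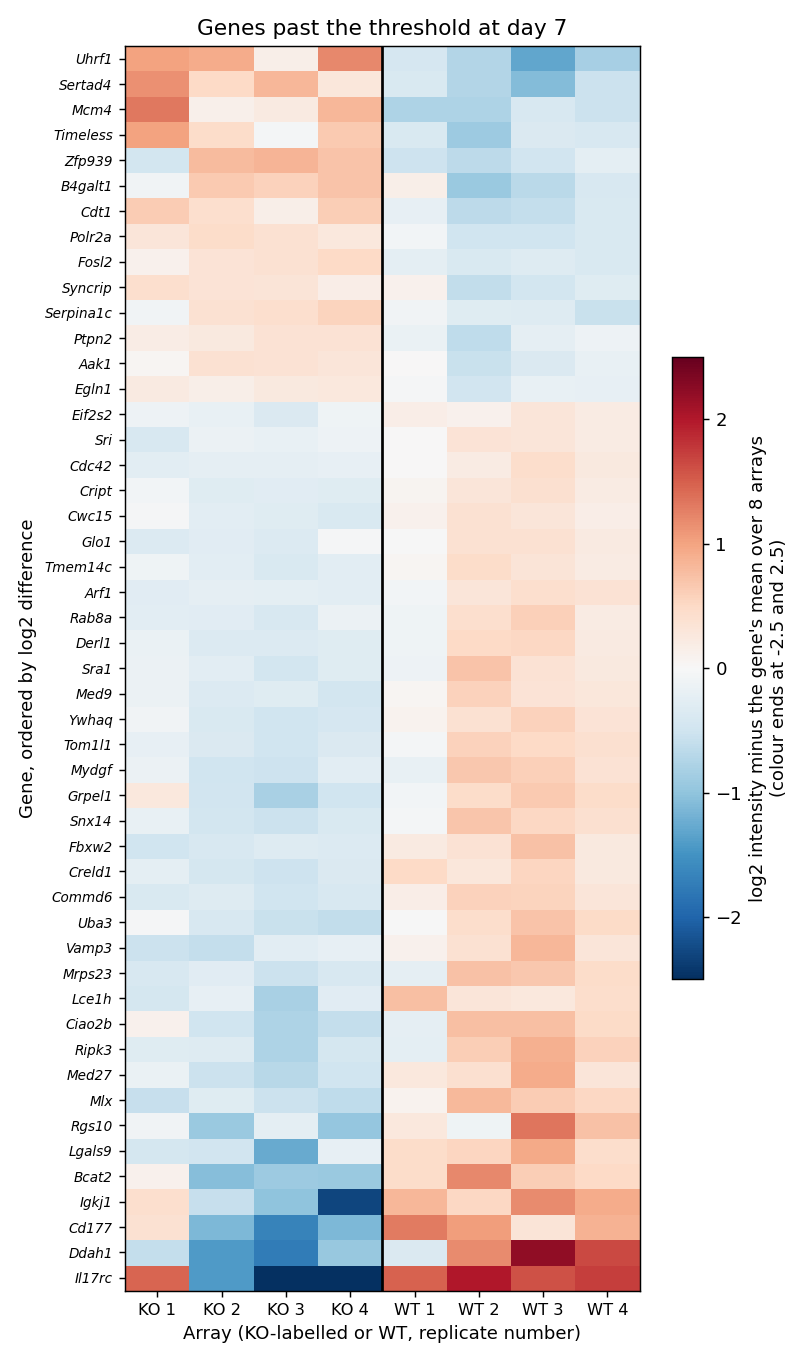
The 49 genes past the threshold at day 7 (rows, ordered by log2 difference) on the 4 KO-labelled arrays (left of the line) and the 4 WT arrays (right), as log2 intensity minus the mean of the gene over the 8 arrays. For 39 of the 49 genes the arrays of the groups do not overlap. KO-labelled replicate 1 lies inside the WT range for 7 and WT replicate 1 inside the KO-labelled range for 9.

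For the IL-17 pathway, Il17rc itself was the only member of 11 receptor subunits and adaptors past the threshold (0.287% of all genes). Il17re, the gene next to Il17rc and the receptor subunit for IL-17C, had intensities of 221, 140, 121 and 130 on KO-labelled arrays, against 204, 261, 187 and 205 on WT arrays. KO-labelled replicate 1 was inside the WT range, the other 3 were below it, and the log2 difference of -0.51 ± 0.23 did not pass (adjusted p = 0.373). Il17ra, the shared receptor subunit, had 71, 91, 93 and 92 on KO-labelled arrays, against 70, 69, 67 and 84 on WT arrays, a difference of 0.19 ± 0.26 (adjusted p = 0.879). Creld1, the next gene on the other side of Il17rc, encodes an endoplasmic reticulum protein with EGF-like domains. It had 31, 29, 29 and 30 on KO-labelled arrays, against 52, 48, 49 and 45 on WT arrays. The groups did not overlap, and Creld1, unlike Il17rc, was low on KO-labelled replicate 1 as well. It fell by 0.79 on the log2 scale (SE 0.17, adjusted p = 0.033), a call that ended without KO-labelled replicate 2, 3 or 4 or WT replicate 2, 3 or 4 and without KO-labelled replicates 1 and 2 together (adjusted p = 0.0745). None of the other measured genes within 10 genes of Il17rc on either side passed. In untreated colon Il17re was lower by limma, at -1.03 ± 0.23 (adjusted p = 0.00787), and so was Creld1, at -0.65 ± 0.17 (adjusted p = 0.034). Neither passed at day 15 (-0.99 and -0.74) or in tumors (-0.10 and -0.46).

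No ligand or target on the pathway lists passed at day 7. Several members were near background on the WT arrays already, so a fall in them could not have been seen. Among these were Il17a at 9 to 12, Il21 at 9 to 11, Il6 at 8 to 9, Cxcl1 at 8 to 13 and Mmp9 at 7 to 11. Of 14 type 17 cytokines and regulators 0 passed, with 3 lower and 0 higher at an unadjusted p below 0.05. Over all genes 5.59% were lower and 5.91% higher at that level. Of 35 IL-17-induced genes 0 passed, with 3 lower and 2 higher at that level and a median log2 difference of 0.00, where the median over all genes was also 0.00. That median depended on the arrays, at -0.21 without KO-labelled replicates 1 and 2 and -0.20 without the arrays with Krt5 above 100. The mean log2 intensity of the 35 genes was 6.54, 5.91, 4.99 and 5.04 on KO-labelled arrays, against 5.89, 5.32, 5.60 and 5.75 on WT arrays. The arrays with the lowest Il17rc, KO-labelled replicates 3 and 4, were below every WT array, and KO-labelled replicates 1 and 2, with high Krt5, were above them all. Ccl20, a chemokine of epithelium that draws Ccr6-bearing lymphocytes and a known IL-17 target, had intensities of 16, 18, 15 and 13 on KO-labelled arrays, against 22, 47, 224 and 90 on WT arrays. The KO-labelled arrays were all near background and below every WT array, and the WT arrays spread widely. Its log2 difference of -2.16 ± 0.53 missed the threshold (adjusted p = 0.0716), and the adjusted p was 0.142 without KO-labelled replicates 1 and 2 and 0.0262 without the arrays with Krt5 above 100.

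Lcn2, an iron-trapping antimicrobial protein and another known IL-17 target, had 3091, 654, 11 and 15 on KO-labelled arrays, against 35, 20, 27 and 33 on WT arrays. It was high on the 2 KO-labelled arrays with high Krt5 and S100a8 and lower than in WT on the other 2. The log2 difference was 2.14 ± 1.36 (adjusted p = 0.604). The part of the tissue mix in Lcn2 was not tested beyond these values.

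DNA replication genes were among the largest rises. Before a cell copies its DNA, Cdt1 loads the Mcm2 to Mcm7 helicase on replication origins, Timeless protects the moving fork, and Uhrf1 brings the maintenance DNA methyltransferase to the new strand. Transcription of many such genes is driven by E2F factors at entry into S phase. RefSeq promoter windows of GRCm38.p6, each 300 bases from 250 before to 50 after a transcription start, were searched on both strands for the E2F-type letters TTTCCCGC, TTTCGCGC, TTTGCCGC and TTTGGCGC. The windows of these called genes that hold a match are printed to show its place, with the match in capitals.
Cdt1, chr8:122567765-122568064, plus strand: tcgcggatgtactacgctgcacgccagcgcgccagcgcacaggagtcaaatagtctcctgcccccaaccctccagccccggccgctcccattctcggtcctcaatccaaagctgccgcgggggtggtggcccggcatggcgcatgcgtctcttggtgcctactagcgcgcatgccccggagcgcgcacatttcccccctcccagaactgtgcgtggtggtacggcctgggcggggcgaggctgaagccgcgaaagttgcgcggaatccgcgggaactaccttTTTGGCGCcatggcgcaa
Uhrf1, second of its 2 start sites, chr17:56304063-56304362, plus strand: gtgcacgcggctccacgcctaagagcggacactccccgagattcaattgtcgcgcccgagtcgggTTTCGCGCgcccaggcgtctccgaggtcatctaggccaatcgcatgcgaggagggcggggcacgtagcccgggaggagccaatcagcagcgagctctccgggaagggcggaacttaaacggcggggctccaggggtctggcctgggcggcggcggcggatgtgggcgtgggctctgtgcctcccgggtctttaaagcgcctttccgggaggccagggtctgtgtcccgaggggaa
The match in the Cdt1 window begins 32 bases after the start and that in the Uhrf1 window 185 bases before it. The other Uhrf1 window and the Timeless window on chromosome 10 hold none, and for Mcm4 no window was used. Of 32851 windows in the table, 2.26% hold at least 1 match, and a match is a run of letters and not a measured binding site.

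Cdt1 had intensities of 240, 207, 177 and 244 on KO-labelled arrays, against 127, 99, 91 and 119 on WT arrays. The lowest KO-labelled array was well above the highest WT array. Cdt1 rose by 0.92 ± 0.16 on the log2 scale (adjusted p = 0.00536), and a second probe set had the same sign (0.55 ± 0.22), but the mean over its probe sets did not pass.

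Uhrf1 had intensities of 48, 47, 29 and 57 on KO-labelled arrays, against 19, 15, 10 and 14 on WT arrays, again without overlap and with the WT arrays near background. Its rise of 1.64 ± 0.31 (adjusted p = 0.0112) was the largest of the 14. That call ended without KO-labelled replicate 4 or WT replicate 3, with adjusted p up to 0.089, with a pseudocount of 16 (1.05) and with the mean over its probe sets (0.84), the dimmer of which gave 0.03. Mcm4, a helicase subunit on chromosome 16, had 155, 68, 77 and 113 on KO-labelled arrays, against 35, 37, 41 and 42 on WT arrays. The WT arrays were tightly grouped and every KO-labelled array was above them, most of all replicate 1. The rise was 1.24 ± 0.24 (adjusted p = 0.0112) and ended without KO-labelled replicate 4 or WT replicate 2, with adjusted p up to 0.0734. Timeless had 43, 31, 23 and 35 on KO-labelled arrays, against 18, 12, 17 and 17 on WT arrays. The groups did not overlap, and it rose by 1.02 ± 0.22 (adjusted p = 0.0348), a call that was lost in 6 of the 8 fits without a single array, all except those without KO-labelled replicate 3 or WT replicate 1. It was also lost with a pseudocount of 16 (0.64) and with the mean over probe sets (0.47), the dimmer of which gave -0.07.

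The wider list of 21 proliferation genes had 2 members past the threshold, Uhrf1 and Mcm4, both higher (0.0819% of all genes rose). All 4 KO-labelled arrays were above all 4 WT arrays in 6 of the 21, where 2.99% of all genes had that order. Of the 21, 17 had a difference above 0 and 4 below. The median log2 difference was 0.44, where it was 0.00 over all genes, and 0.18 without KO-labelled replicates 1 and 2. At the other stages the list median was 0.32 in untreated colon, 0.95 at day 15 and 0.08 in tumors. Mcm6 had intensities of 212, 159, 98 and 154 on KO-labelled arrays, against 81, 64, 74 and 92 on WT arrays, and a difference of 0.87 ± 0.21 (adjusted p = 0.0626). Mcm2 had 65, 52, 39 and 59 on KO-labelled arrays, against 22, 32, 30 and 22 on WT arrays, and a difference of 0.96 ± 0.28 (adjusted p = 0.137). Both helicase subunits were separated between the groups but did not pass. Both, like Timeless and Mcm4, were highest on KO-labelled replicate 1, whose Il17rc was at the WT level. Cdt1 and Uhrf1 were highest on replicate 4. Replicate 3, with low Il17rc, was the lowest KO-labelled array for each of these genes but Mcm4. The 21 genes had mean log2 intensities of 6.554, 6.105, 5.911 and 6.226 on KO-labelled arrays, against 5.684, 5.891, 5.731 and 5.875 on WT arrays. Whether these rises follow Il17rc was not tested. Mki67, a marker of all phases of the cell cycle except rest, had 268, 278, 299 and 292 on KO-labelled arrays, against 190, 280, 135 and 217 on WT arrays. It overlapped, with a difference of 0.48 ± 0.27 (adjusted p = 0.532), and was named after its values were seen. Without KO-labelled replicates 1 and 2, Mcm4 passed (adjusted p = 0.0453), while Cdt1 (0.0539), Uhrf1 (0.0818) and Timeless (0.225) did not.

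The levels of these genes at day 7 were low in both genotypes. Uhrf1 had a median of 47.5 on KO-labelled and 14.5 on WT day 7 arrays, against 140 and 89 on untreated KO and WT arrays, 138 and 68 at day 15 and 135.5 and 145.5 in tumors. Mcm4 had a median of 95 on KO-labelled and 39 on WT day 7 arrays, against 281.5 and 193.5 on untreated KO and WT arrays. The genotype difference in Uhrf1 was 0.51 ± 0.31 in untreated colon, 1.30 ± 0.31 at day 15 and 0.04 ± 0.26 in tumors, and none of its 3 tests of day 7 against another stage passed (adjusted p = 0.191 against untreated, 0.838 against day 15 and 0.187 against tumors).

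**Figure D3:**
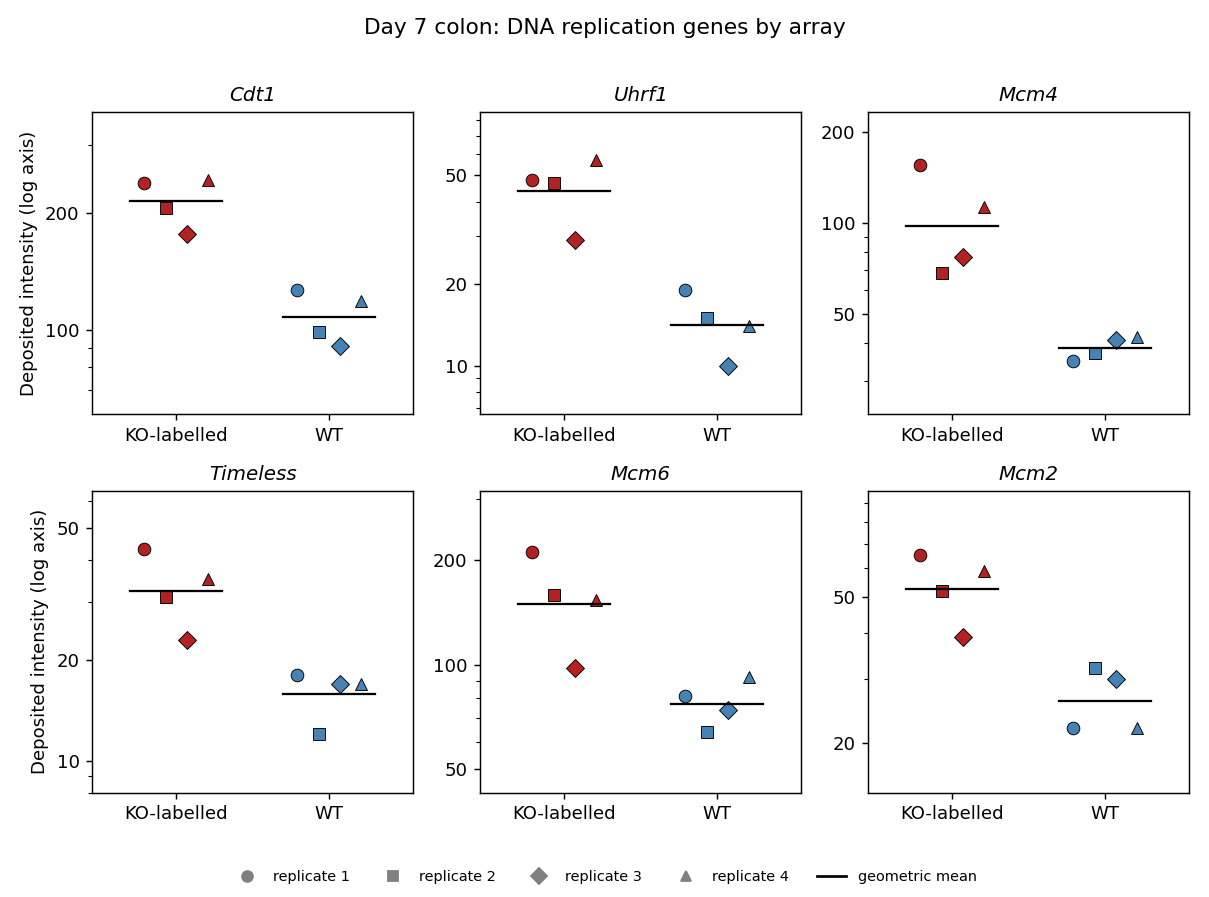
Deposited intensity (log axis) of 6 DNA replication genes on the 8 day 7 arrays, KO-labelled left and WT right, with replicates 1 to 4 as circle, square, diamond and triangle and the geometric mean as a line. In each of the 6 panels all KO-labelled arrays lie above all WT arrays, and Cdt1, Uhrf1, Mcm4 and Timeless passed the threshold.

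Other rises included genes of transcription control and signalling. Sertad4, a poorly described member of a family of transcription cofactors on chromosome 1, had intensities of 74, 48, 64 and 41 on KO-labelled arrays, against 26, 21, 16 and 23 on WT arrays. The groups were clearly apart, and Sertad4 rose by 1.37 ± 0.22 (adjusted p = 0.00228), also in each fit without a single array. In untreated colon it ran the other way, at -1.07 ± 0.22, and the difference between day 7 and untreated was 2.44 ± 0.31 (adjusted p = 6.41e-06). Fosl2, a subunit of the AP-1 transcription factor, had 1087, 1306, 1355 and 1477 on KO-labelled arrays, against 862, 827, 849 and 810 on WT arrays. The WT arrays were within a narrow band below every KO-labelled array, and the rise was 0.66 ± 0.14 (adjusted p = 0.0189). B4galt1, which adds galactose to glycoproteins, had 845, 1428, 1352 and 1489 on KO-labelled arrays, against 987, 495, 570 and 709 on WT arrays. KO-labelled replicate 1 fell among the WT arrays and the other 3 were above them all, with a rise of 0.93 ± 0.18 (adjusted p = 0.0112).

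Egln1, the oxygen sensor that marks HIF-alpha for destruction, had 597, 573, 617 and 620 on KO-labelled arrays, against 503, 380, 454 and 461 on WT arrays, and rose by 0.45 ± 0.09 (adjusted p = 0.0112). Polr2a, the large subunit of RNA polymerase II, had 277, 318, 301 and 276 on KO-labelled arrays, against 210, 162, 148 and 177 on WT arrays, and rose by 0.71 ± 0.16 (adjusted p = 0.0394). Neither overlapped between the groups. Ptpn2, a phosphatase that restrains cytokine signalling through JAK and STAT proteins, rose by 0.57 ± 0.13 (adjusted p = 0.0394) with no overlap, at 491 to 576 on KO-labelled arrays and 292 to 415 on WT arrays. Another Ptpn2 probe set, nearly as bright, gave 0.22 ± 0.12. The Ptpn2 call was lost with the mean over its probe sets and without KO-labelled replicates 1 and 2. Aak1, Syncrip, Serpina1c and Zfp939 were the other 4 of the 14. Sertad4 kept its call in all 8 fits without a single array, while calls ended in 3 fits for Egln1, 5 for B4galt1 and 6 each for Fosl2, Polr2a and Ptpn2, always without WT replicate 2 and KO-labelled replicate 4.

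Among immunoglobulin transcripts Igkj1 alone passed the threshold, and it fell. Plasma cells of the colon wall make dimeric IgA, joined by the J chain and carried across the epithelium. The probe set named Igkj1, a joining segment of the kappa light chain on chromosome 6, had intensities of 2259, 1088, 814 and 341 on KO-labelled arrays, against 2977, 2526, 3851 and 3265 on WT arrays. Every KO-labelled array was below every WT array, replicate 1 the closest to them. Igkj1 fell by 1.72 on the log2 scale (SE 0.35, adjusted p = 0.0176), and the difference was -2.51 without KO-labelled replicates 1 and 2. That call ended without KO-labelled replicate 3 or 4 or WT replicate 3 or 4, with adjusted p up to 0.11. In whole tissue, fewer cells of a type and less RNA per cell cannot be told apart, and such probe sets can bind transcripts of many related gene segments.

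Jchain, named after its values were seen, had 1271, 435, 288 and 94 on KO-labelled arrays, against 1805, 1275, 2924 and 2149 on WT arrays. KO-labelled replicate 1 was again the highest of its group, at the level of the lowest WT array, and replicate 4 the lowest. The difference of -2.43 ± 0.57 did not pass with all arrays (adjusted p = 0.0564) and passed without KO-labelled replicates 1 and 2 (-3.51, adjusted p = 0.00517). The lambda segment Iglv1 had 146, 43, 23 and 14 on KO-labelled arrays, against 291, 275, 1141 and 640 on WT arrays, and a difference of -3.65 ± 0.97 (adjusted p = 0.0966). All 9 plasma cell genes measured had a difference below 0 (median -0.33), with 0 past the threshold. At an unadjusted p below 0.05, 1 was lower, as were 5.59% of all genes. Of 12 B cell markers 11 were below 0 (median -0.31), with 0 past the threshold and 1 lower at that level.

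Macrophage markers had the lowest median of the cell type lists at -0.92, with 16 of 17 below 0 and 0 past the threshold. At an unadjusted p below 0.05, 8 were lower, as were 5.59% of all genes. Lyz2, the lysozyme of macrophages and neutrophils, had intensities of 421, 347, 367 and 275 on KO-labelled arrays, against 688, 484, 1691 and 889 on WT arrays. The groups were apart, with WT replicate 3 the highest, and the difference was -1.24 ± 0.29 (adjusted p = 0.0521). C1qb, a complement subunit made by tissue macrophages, had 75, 34, 32 and 20 on KO-labelled arrays, against 94, 54, 390 and 179 on WT arrays. Here KO-labelled replicate 1 was above WT replicate 2, and the difference was -1.94 ± 0.53 (adjusted p = 0.108). Of the 17 markers 0 passed without KO-labelled replicates 1 and 2, 1 (C1qb) without the arrays with Krt5 above 100, and 4 with replicate 1 of both genotypes left out (2.37% of all genes were then lower), the setting added after these values were seen. The mean log2 intensity of the 17 markers was 4.89 to 5.97 on KO-labelled arrays and 5.50 to 7.05 on WT arrays.

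Cxcl13, the chemokine that gathers B cells into follicles, had 21, 20, 18 and 38 on KO-labelled arrays, against 114, 75, 489 and 265 on WT arrays. WT replicates 3 and 4 were the highest for it, as for Iglv1, C1qb, Lyz2 and Ccl20, and the difference of -2.96 ± 0.91 did not pass (adjusted p = 0.157). T cell and cytotoxic markers had a median of -0.11, with 0 of 17 past the threshold. At an unadjusted p below 0.05, 2 were lower, as were 5.59% of all genes. How far the amount of lymphoid tissue in the samples bears on these differences was not tested.

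**Figure D4:**
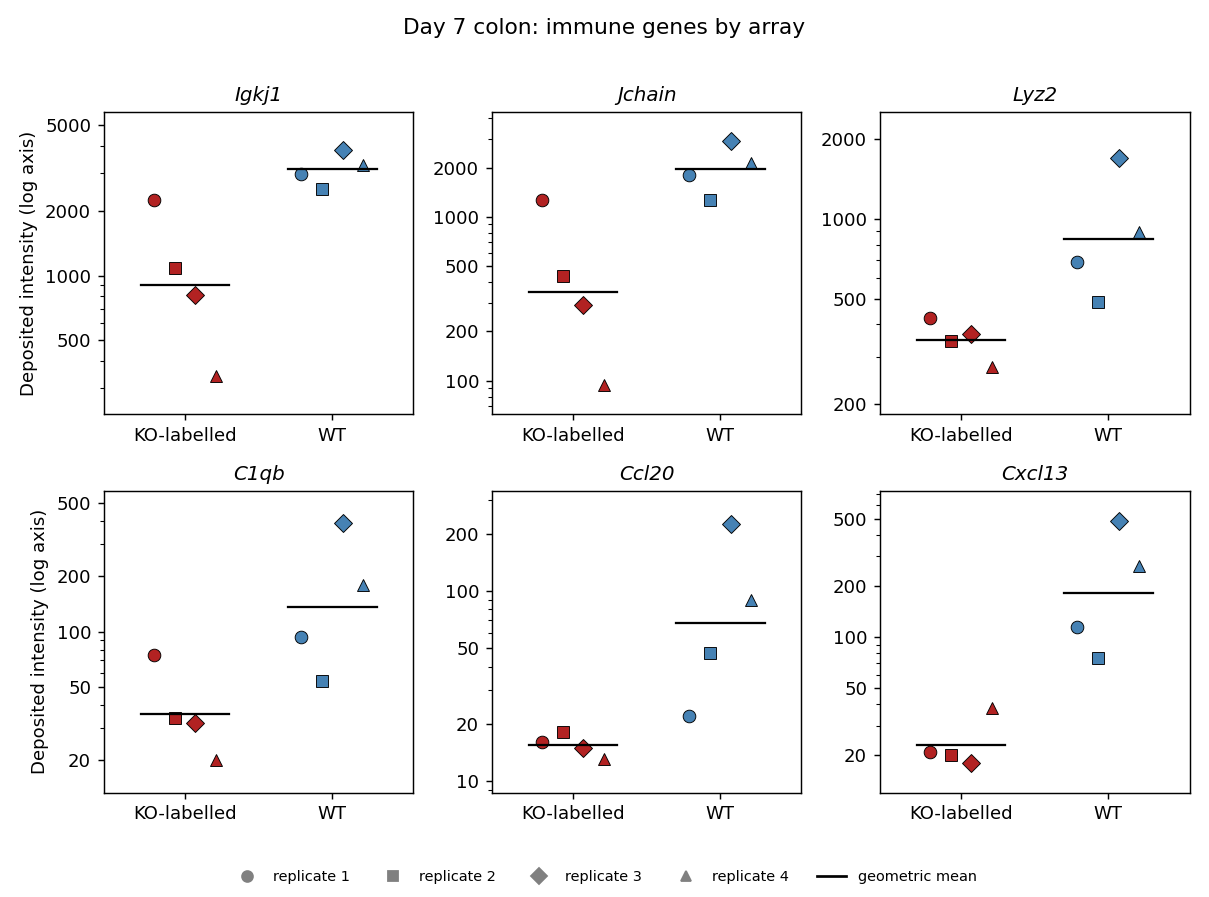
Deposited intensity (log axis) of 6 immune genes on the 8 day 7 arrays, KO-labelled left and WT right, with replicates 1 to 4 as circle, square, diamond and triangle and the geometric mean as a line. Igkj1 passed the threshold, at 341 to 2259 on KO-labelled and 2526 to 3851 on WT arrays, and the other 5 did not.

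Lgals9, an interferon-induced lectin, had intensities of 30, 31, 19 and 37 on KO-labelled arrays, against 56, 63, 75 and 58 on WT arrays, with no overlap. It fell by 1.19 on the log2 scale (SE 0.25, adjusted p = 0.0282), a call lost in 5 of the 8 fits without a single array. Ripk3, the kinase that starts necroptosis, had 52, 53, 41 and 48 on KO-labelled arrays, against 53, 105, 116 and 102 on WT arrays. WT replicate 1 sat at the KO-labelled level and the other WT arrays were well above it. Ripk3 fell by 0.92 (SE 0.20, adjusted p = 0.0305), a call lost in 6 of those 8 fits, all but those without KO-labelled or WT replicate 1.

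Of the 35 falls 8 passed 1 log2 unit, and the others were smaller. Commd6, a subunit of the Commander complex of endosomal recycling, had intensities of 118, 127, 118 and 120 on KO-labelled arrays, against 174, 250, 234 and 206 on WT arrays. The KO-labelled arrays were nearly equal and the WT arrays all higher, and Commd6 fell by 0.80 (SE 0.12, adjusted p = 0.00228). Med27, a subunit of the Mediator complex that links transcription factors to RNA polymerase II, had 35, 29, 27 and 29 on KO-labelled arrays, against 47, 55, 70 and 50 on WT arrays, and fell by 0.95 (SE 0.16, adjusted p = 0.00312). Cwc15, a spliceosome component, had 464, 399, 392 and 376 on KO-labelled arrays, against 523, 654, 598 and 556 on WT arrays, and fell by 0.49 (SE 0.08, adjusted p = 0.0028). None of the 3 overlapped between the groups, and all 3 kept their call in each fit without a single array and without KO-labelled replicates 1 and 2.

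Arf1, a GTPase that forms coated vesicles at the Golgi, had 462, 490, 489 and 484 on KO-labelled arrays, against 554, 742, 797 and 755 on WT arrays, and fell by 0.51 (SE 0.09, adjusted p = 0.00465). Fbxw2, a substrate-binding part of a ubiquitin ligase, had 41, 46, 51 and 47 on KO-labelled arrays, against 67, 79, 92 and 72 on WT arrays, and fell by 0.78 (SE 0.12, adjusted p = 0.00228). Both were lower on every KO-labelled array than on any WT array. Uba3, a subunit of the enzyme that activates NEDD8, had 255, 197, 182 and 171 on KO-labelled arrays, against 259, 368, 434 and 379 on WT arrays, and fell by 0.81 (SE 0.16, adjusted p = 0.0189). KO-labelled replicate 1 and WT replicate 1 nearly met, and the call was lost in 6 of the 8 fits without a single array. Ywhaq, the 14-3-3 theta adaptor protein, had 940, 776, 724 and 758 on KO-labelled arrays, against 1058, 1357, 1560 and 1322 on WT arrays, and fell by 0.69 (SE 0.13, adjusted p = 0.00609). The groups of Ywhaq arrays did not overlap, and its call ended without WT replicate 3 (adjusted p = 0.0682).

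Other probe sets of the called genes did not always show the same change. Of the 49 genes 20 had another probe set at or above an intensity of 16, and of these 34 probe sets 26 had the sign of the call, 10 of them with an unadjusted p below 0.05, and 8 the opposite sign. For Ywhaq the probe set used was the brightest over the 36 arrays, and 4 others gave log2 differences of -0.22, -0.03, -0.15 and 0.07. On the day 7 arrays the probe sets at 0.07 and -0.03 were brighter, with means of 1330.5 and 1192.38, against 1061.88 for the one used. For Fbxw2 the used probe set gave -0.78 and the next brightest -0.17. For Uba3 the other 2 gave -0.32 and -0.33. Sizes for these genes therefore belong to a probe set and not to the gene as a whole.

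Ddah1, which degrades the inhibitors of nitric oxide synthase, had the largest fall after Il17rc among the 35 called genes, while several genes that did not pass, such as Iglv1 and Cxcl13, had differences further below 0. Its intensities were 48, 29, 24 and 39 on KO-labelled arrays, against 56, 183, 366 and 255 on WT arrays. WT replicate 1 was just above the highest KO-labelled array and far below the other WT arrays. Ddah1 fell by 2.35 on the log2 scale (SE 0.42, adjusted p = 0.00537), and 3 other probe sets gave -2.00, -1.55 and -0.76. The call ended without WT replicate 3 (adjusted p = 0.0682).

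Some epithelial and muscle genes placed WT replicate 1 with the KO-labelled arrays. Slc9a3, the sodium-proton exchanger of absorptive cells, had intensities of 40, 26, 24 and 25 on KO-labelled arrays, against 18, 294, 637 and 366 on WT arrays. Fabp2, the intestinal fatty acid binding protein, had 147, 125, 125 and 147 on KO-labelled arrays, against 119, 822, 1112 and 703 on WT arrays. For both genes WT replicate 1 was the lowest of the 8 arrays and the other WT arrays were many times higher. The log2 differences were -2.66 ± 0.72 for Slc9a3 (adjusted p = 0.104) and -1.92 ± 0.97 for Fabp2 (adjusted p = 0.457). Scnn1g, a subunit of the sodium channel of the distal colon, ran the other way, at 61, 204, 239 and 226 on KO-labelled arrays, against 139, 29, 46 and 68 on WT arrays. There KO-labelled replicate 1 was with WT replicates 2 to 4, and WT replicate 1 lay between them and the other KO-labelled arrays.

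The same arrays stood apart in the neighbouring lists. Insl5, a hormone of colonic enteroendocrine cells named after its values were seen, had 708, 546, 322 and 514 on KO-labelled arrays, against 422, 2086, 1612 and 1572 on WT arrays. The 13 smooth muscle genes had a mean log2 intensity of 9.52, 10.37, 10.62 and 10.31 on KO-labelled arrays, against 10.41, 9.34, 9.30 and 9.77 on WT arrays. All 13 had a difference above 0 (median 0.49), with 0 past the threshold and 2 higher at an unadjusted p below 0.05. Over all genes 5.91% were higher and 5.59% lower at that level. Pcp4, a calmodulin-binding protein of muscle and neurons, had 647, 1649, 2087 and 1231 on KO-labelled arrays, against 2156, 189, 150 and 741 on WT arrays. WT replicate 1 lay inside the KO-labelled range for Insl5 and the smooth muscle mean and above it for Pcp4. Of 24 absorptive colonocyte genes and 13 goblet cell genes 0 passed, with medians of -0.22 and -0.24 and with 1 higher and 1 lower, and 0 higher and 2 lower, at an unadjusted p below 0.05. Whether the sampled stretch of colon differed between arrays was not tested.

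Without KO-labelled replicates 1 and 2, the genes called higher included Myh2, Rbfox3 and Itga5, all dim on these arrays. Of the smooth muscle and the enteric neuron and glia lists 0 genes passed there by limma. Myh2, a myosin heavy chain of fast skeletal muscle, had intensities of 9, 15, 27 and 28 on KO-labelled arrays, against 15, 11, 9 and 10 on WT arrays. Its log2 difference was 0.67 with all arrays (adjusted p = 0.16) and 1.28 without them (adjusted p = 7.11e-05). Rbfox3, a splicing factor used as a marker of neurons, had 17, 54, 98 and 53 on KO-labelled arrays, against 51, 12, 13 and 21 on WT arrays, and differences of 1.17 (adjusted p = 0.134) and 1.77 (adjusted p = 0.00742). Itga5, the fibronectin receptor subunit, had 10, 24, 42 and 22 on KO-labelled arrays, against 15, 12, 8 and 9 on WT arrays, and differences of 0.99 (adjusted p = 0.0518) and 1.45 (adjusted p = 0.000463). KO-labelled replicate 1 was low for all 3. KO-labelled replicates 3 and 4 were above every WT array for all 3, and replicate 2 was so for Rbfox3 and Itga5 and level with WT replicate 1 for Myh2.

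The genotype difference at day 7 was set against that at each other stage. It differed from the untreated one for 404 genes (2.36%), 109 above (0.638%) and 295 below it (1.73%), from the day 15 one for 9 genes (0.0526%) and from the tumor one for 8 (0.0468%). These comparisons share the day 7 arrays, and Krt5 spanned 16 to 6043 on the untreated WT arrays, where it was 20 to 22 on the untreated KO arrays. The counts ranged over 206 to 898, 1 to 178 and 1 to 74 when a single array of the stages compared was left out, with the highest count in each without WT day 7 replicate 1. Of the 49 genes 40 were called at no other stage, and 29 differed from untreated, 6 from day 15 and 7 from tumors. The 49 were chosen by their day 7 difference, which enters each of these tests, so that choice raises these counts. Commd6, Med27, Cwc15 and Ywhaq differed from all 3. The genotype difference in Med27, for example, was -0.95 at day 7, against 0.23 in untreated colon, 0.37 at day 15 and 0.18 in tumors, where none passed.

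Interferon-stimulated genes gave the widest gap between stages. Interferon-gamma switches on antigen presentation genes, immunity-related GTPases and the tryptophan-degrading enzyme Ido1. Of 27 genes of this kind 26 were called higher in untreated KO colon (1.78% of all genes), with a median difference of 3.41. None was called at day 7, with a median of -0.54 and 6 lower at an unadjusted p below 0.05 (5.59% of all genes). The test of day 7 against untreated passed for 24 of the 27, all below 0 (1.73% of all genes passed in that direction). Ido1 had intensities of 21, 24, 30 and 16 on KO-labelled arrays, against 29, 27, 37 and 28 on WT arrays at day 7, and medians of 1420 on untreated KO and 10 on untreated WT arrays. All 8 day 7 arrays were thus low, and the gap between the stages came from the untreated KO arrays. The genotype difference at day 7 minus that in untreated colon was -7.36 ± 1.11 (adjusted p = 0.000106).

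Ifi47, an immunity-related GTPase, had 106, 79, 62 and 34 on KO-labelled day 7 arrays, against 195, 91, 247 and 209 on WT arrays. KO-labelled replicate 1 was above WT replicate 2, and the difference was -1.39 ± 0.50 (adjusted p = 0.223), with a gap to untreated of -6.16 ± 0.71 (adjusted p = 2.9e-06). Lgals9 and Ripk3 turned their sign between the stages, each with a call on both sides. Lgals9 was at -1.19 ± 0.25 at day 7 and 2.31 ± 0.25 in untreated colon, and Ripk3 at -0.92 ± 0.20 and 1.60 ± 0.20. Of 18 type I interferon-stimulated genes 11 passed the test of day 7 against untreated, all below 0, and 0 passed at day 7, with 0 at an unadjusted p below 0.05 and a median of -0.10. Igkj1 also turned, at -1.72 ± 0.35 at day 7 and 1.31 ± 0.35 in untreated colon, with a gap of -3.03 ± 0.49 (adjusted p = 0.000236).

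**Figure D5:**
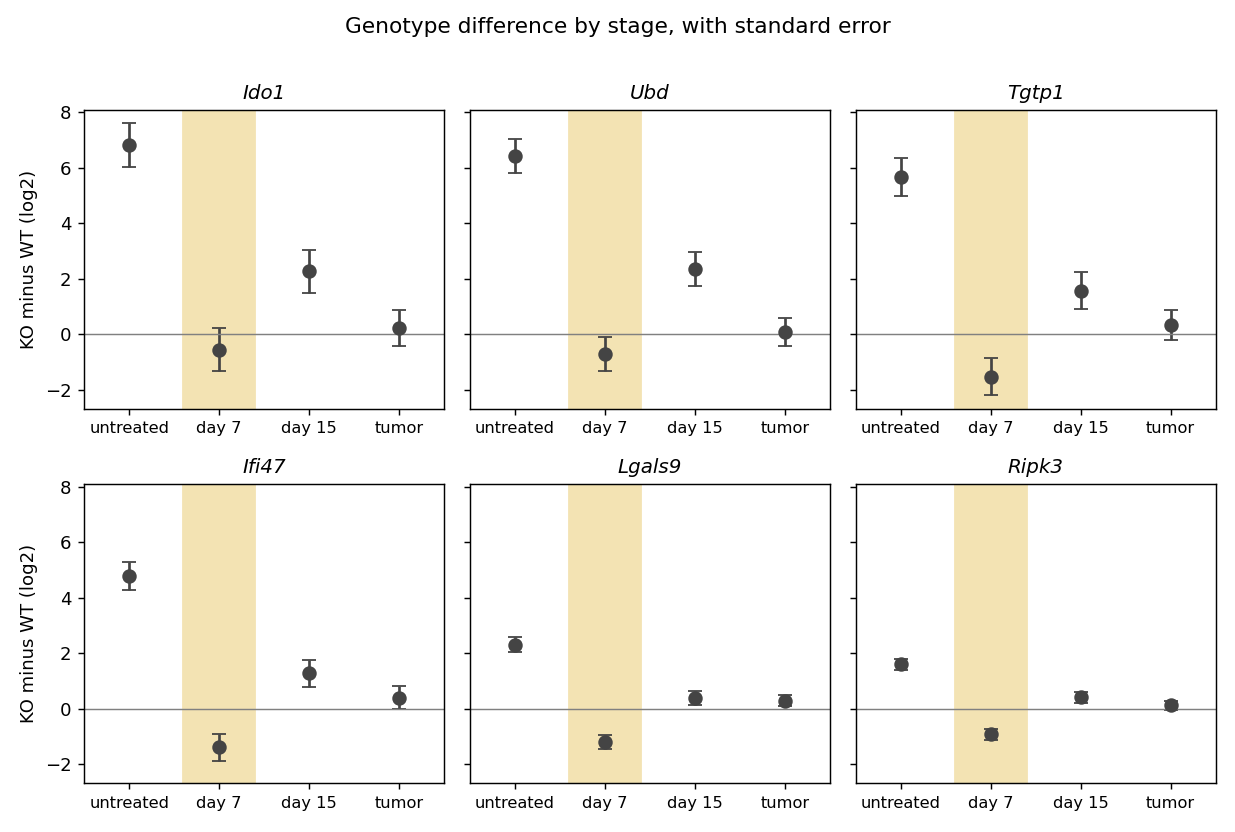
Genotype difference (KO minus WT, log2, with the limma standard error) of 6 interferon-linked genes in untreated colon, at day 7 (shaded), at day 15 and in tumors. At day 7 the differences lie at or below 0, from -0.54 for Ido1 to -1.51 for Tgtp1, against 6.82 and 5.67 for them in untreated colon.

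Genes that differed in the same direction at day 7 and another stage were few. Of the 49 genes 4 were also called in untreated colon in that direction (2.27% of all genes were called there), 3 at day 15 (0.222%) and 3 in tumors (0.0526%), and 4 in untreated colon in the opposite direction. Bcat2, called at every stage, fell by 1.39 at day 7 (SE 0.24, adjusted p = 0.0039), 1.46 in untreated colon, 1.06 at day 15 and 1.19 in tumors. Cd177, a surface protein of neutrophils that is also found in colon epithelium, had intensities of 190, 67, 48 and 67 on KO-labelled day 7 arrays, against 370, 320, 178 and 286 on WT arrays. KO-labelled replicate 1 overlapped WT replicate 3, and Cd177 fell by 1.77 (SE 0.38, adjusted p = 0.0273) at day 7, a call lost in 5 of the 8 fits without a single array, against 1.87 at day 15 and 1.72 in tumors. Zfp939 rose by 0.96 ± 0.19 at day 7 (adjusted p = 0.0176) and by 0.73 ± 0.19 in untreated colon (adjusted p = 0.0344), although KO-labelled replicate 1 was at the WT level. Without that replicate the day 7 rise was 1.27, and the call was lost without KO-labelled replicate 2, 3 or 4 or WT replicate 2 or 3.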

How the data were processed

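Total RNA of whole colon was hybridised to 1-colour Affymetrix HT MG-430 PM arrays. The deposited values are linear intensities from 4 to 14185 per probe set, per the value table; the authors' background correction, summary method and normalization are not stated by any label read here. Array medians were 14 to 16, the number of arrays limits the precision, and 38.2% of genes had a day 7 mean below 16. Of 45037 probe sets, 28898 had 1 gene symbol, 551 several and 15588 none, and the brightest of each gene gave 17097 genes.

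From these, log2(intensity + 1) was quantile normalized between arrays, and limma 3.58.1 in R 4.3.3 fitted 8 group means over all 36 arrays, with an intensity trend and Benjamini-Hochberg adjustment over all genes at 0.05. A fold on this scale understates changes of dim genes. The fit was tested on simulated data. Errors are limma standard errors. Stage tests are differences between 2 genotype contrasts.

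Samples were grouped by title. Members, the 32 gene lists and the array subsets were chosen with earlier results of these data known. Named genes were, by rule, the called genes with the largest changes whose arrays do not overlap (also without KO-labelled replicates 1 and 2), those called at another stage too, the largest stage differences, IL-17 pathway genes, the smallest p of each list described, and Krt5, Krt14 and S100a8; others are said to be named after their values were seen. Alternatives were the pseudocount, normalization, dim filter, probe set choice, trend, array weights, samples in the fit, a block and arrays left out. Same-numbered KO-labelled and WT arrays did not deviate together (residual correlations 0.175, -0.128, 0.0467 and -0.212), so numbers were not taken to pair arrays. No arrays held identical values.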

Additional observations from a re-analysis of the deposited data

Results flagged for a closer look

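Single arrays stood far from the other 3 of their group by Dixon's criterion in 6 of 110 groups of 4 checked. That share is near 1 in 20, the rate by chance for independent groups. These groups share arrays, and their genes were partly chosen by their values, so the count shows neither an excess nor its absence. On KO-labelled replicate 1 these were Bcat2 at an intensity of 23, Zfp939 at 19, B4galt1 at 845 and Scnn1g at 61, and in each of them that array lay toward the WT arrays. On WT arrays they were Timeless at 12 on replicate 2 and Insl5 at 422 on replicate 1.

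The genotype difference at day 7 differed from that in untreated colon for 404 genes, from that at day 15 for 9 and from that in tumors for 8, each by limma's test of the difference. Against untreated colon the gap was -7.36 for Ido1, -7.18 for Tgtp1, -7.12 for Ubd, -6.16 for Ifi47 and -6.15 for Iigp1 on the log2 scale. Retnlb, a goblet cell defence protein, had -6.22 and the lambda segment Iglv1 -6.06. Lgals9 had -3.51, Ripk3 -2.52 and Commd6 -0.69. Gaps above 0 were 2.44 for Sertad4, 4.35 for the alarmin Il33 and 4.52 for Mal, a protein of apical membranes. Il33 had intensities of 696, 116, 20 and 18 on KO-labelled day 7 arrays, against 31, 16, 24 and 17 on WT arrays, so it was high on the arrays with high Krt5 in the KO-labelled group, whose part in the gap was not tested. The larger part of both gaps lay in untreated colon, at -2.65 for Il33 and -3.13 for Mal, against 1.70 and 1.39 at day 7. Untreated WT arrays had 73 to 911 for Il33 and 44 to 1428 for Mal, and untreated KO arrays 27 to 45 and 17 to 30.

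Against day 15 and tumors the gaps were -1.05 and -0.81 for Commd6, -1.32 and -1.12 for Med27, -0.61 and -0.57 for Cwc15, and -0.88 and -0.82 for Ywhaq.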

How the results depend on the processing

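No called gene reversed its sign under any alternative: over the 49 genes, 687 alternative values kept the call and 341 lost it, and 0 genes kept it under every setting. That 0 was fixed by the setting with only the 8 day 7 arrays, which called 0 genes. Il17rc, Bcat2, Sertad4, Commd6, Med27, Cwc15, Arf1 and Lce1h lost their call in that setting alone. The day 7 count of 49 became 74 without normalization between arrays, 101 without dim genes, 30 with the mean of all probe sets, 3493 with array weights, 0 with only the 8 day 7 arrays (2127 at an unadjusted p below 0.05 by limma), 22 with the replicate number as a block (2127 at that level), 416 without arrays with Krt5 above 100, 148 with the squamous list mean as a covariate and 758 with replicate 1 of both genotypes left out. Leaving out 1 array gave 13 to 528. Il17rc was at -3.41 with only the 8 arrays but no longer passed (adjusted p = 0.223). It was -2.80 to -4.46 without 1 array.

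The gap to untreated colon, 404 genes, became 2504 with array weights and 973 with replicate 1 of both genotypes left out, and 206 to 898 without 1 array. The gap to day 15, 9 genes, became 29 without normalization, 31 without dim genes, 5 with the mean of probe sets, 897 with array weights, 2 with only the groups compared, 0 with the replicate block (2157 at an unadjusted p below 0.05), 37 without KO-labelled replicates 1 and 2, 375 without high-Krt5 arrays, 516 with replicate 1 of both left out, and 1 to 178 without 1 array. The gap to tumors, 8 genes, became 1624 with array weights, 0 with only the groups compared (1668 at that level), 0 with the replicate block (1546), 16 without KO-labelled replicates 1 and 2, 166 without high-Krt5 arrays, 229 with replicate 1 of both left out, and 1 to 74 without 1 array. The causes of these shifts were not tested. With 4 arrays a group, 1 of them at the WT level of Il17rc, and 38.2% of genes near background, changes in dim genes could not be resolved.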

Other observations

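Other gene lists had 0 genes past the threshold at day 7, with medians on either side of 0. At an unadjusted p below 0.05, 5.91% of all genes were higher and 5.59% lower. Of 28 xenobiotic-metabolizing enzymes 22 were below 0, with a median log2 difference of -0.39, 5 lower and 1 higher at an unadjusted p below 0.05, and 0 past the threshold by limma. Of 16 circadian clock and output genes 14 were above 0, with a median of 0.28, 2 higher and 0 lower at that level, and 0 past it. Of 14 enteroendocrine genes 11 were below 0, with a median of -0.52, 3 lower and 0 higher at that level and 0 past it. Their median was -0.95 when arrays with a Krt5 intensity over 100 were left out and -0.69 without KO-labelled replicates 1 and 2, and limma called 0 of them in either case. Of 14 intestinal stem cell genes 10 were above 0, with a median of 0.16, 1 higher and 0 lower at that level, and 0 past it.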
